A study of Mus musculus with 4 samples.

Results

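The lysosomal genes described here are 37 mouse genes that encode lysosomal enzymes, lysosomal membrane proteins, cholesterol carriers, the transcription factor Tfeb and the secreted factor progranulin (Grn). They form a list set by gene name and chosen with earlier results of these data known. Each was read on the array probe with the highest mean signal of that gene. All 37 were on the array, out of 35753 genes on it, and 35 of them had signal clearly over background (the scanner's own call, well above background) on 1 array or more, as did 22847 genes in the whole series. The probes for the cysteine proteases Ctss and Ctsh were not well above background on any of the 4 arrays and gave no difference.

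RNA came from 3D-retinas, which are retina-like tissues grown in suspension from mouse Nrl-GFP induced pluripotent stem cells, whose rods carry a green reporter driven by the rod gene Nrl. The 4 groups were 4-hydroxytamoxifen (4-OHT, an active metabolite of tamoxifen), 4-OHT together with the antioxidant vitamin E, 4-OHT together with the carotenoid lutein, and the ethanol vehicle. The dose of 4-OHT was 5 µM throughout, that of vitamin E 400 µM and that of lutein 200 nM. Treatment began on differentiation day 23 and the tissue was collected on day 25, when, per the labels, photoreceptors begin to degenerate. Each group was 1 array of RNA from 24 3D-retinas of 1 cell line, so no difference below has a replicate check or a p-value, and the 6 comparisons share arrays with each other.

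Lysosomes break down proteins, glycans, lipids and nucleic acids in an acidic lumen, and most of their soluble enzymes reach them through mannose 6-phosphate tags. The factor Tfeb and its relatives bind a palindromic E-box called the CLEAR element in the promoters of many lysosomal genes and can raise their transcription together. In the retina, loss of several of these enzymes or membrane proteins causes storage disease with photoreceptor degeneration, and tamoxifen belongs to the weakly basic lipophilic drugs that are known to collect in lysosomes.

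The members were first set against the CLEAR element in their promoters, since it is the sequence feature that the family is known for. RefSeq promoter windows on the GRCm38.p6 build, running from 250 bases before to 50 bases after each annotated start, were found for 33 of the 37 genes and were searched on both strands. The core of the element, TCACGTGA, lay in the windows of 5 of these 33 genes (15.2%), against 1.12% of all 27025 genes with a window. The plain E-box CACGTG, which that core contains, lay in 12 of 33 (36.4%), against 8.09% of all genes. The 5 genes with TCACGTGA were the carboxypeptidase Ctsa, the aspartic protease Ctsd, the glycosidase Gla, the calcium channel Mcoln1 and the membrane protein Cln3. Gla held it at 2 places. The stretches around each match are shown 5′ to 3′ on the strand of the gene, with the match in capitals, because these are the members that carry the family's element.
Ctsa, chr2:164833734-164833772: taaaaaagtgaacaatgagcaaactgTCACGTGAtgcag
Ctsd, chr7:142387893-142387952: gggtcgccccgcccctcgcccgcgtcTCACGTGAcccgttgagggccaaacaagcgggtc
Cln3, chr7:126583325-126583384: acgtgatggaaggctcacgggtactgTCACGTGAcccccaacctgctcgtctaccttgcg
Mcoln1, chr8:3500447-3500506: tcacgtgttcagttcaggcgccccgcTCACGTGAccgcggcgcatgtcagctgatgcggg
Gla, chrX:134601200-134601255: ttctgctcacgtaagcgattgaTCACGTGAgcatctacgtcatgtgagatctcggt
Gla, chrX:134601167-134601226: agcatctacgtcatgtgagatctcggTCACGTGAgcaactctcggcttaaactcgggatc

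Motifs of other stress factors were searched in the same windows. The AP-1 type motif TGANTCA lay in 3 of 33 genes (9.09%), Glb1, Neu1 and Psap, against 8.97% of all genes. The ATF4 type motif TGATGNAA lay in 4 of 33 (12.1%), Ctsl, Manba, Smpd1 and Cln3, against 4.51%. A match is a stretch of letters and does not show binding, and no match says only that these letters are not in this window.

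Values are log2 signal intensities minus the 75th percentile of the gene spots of the same array, and the scaled signal is the same quantity on a linear scale, so that 1 stands for that percentile. Scaled signals of different genes come from different probes and are not compared with each other. For probes printed 10 times, the spread between spots (SD) of a log2 difference was 0.14 to 0.15. That figure holds only the noise of spots, called spot noise below, and not how cultures vary. A difference of at least 2-fold is counted as higher or lower, with 1.5-fold as a second limit, and both are fixed sizes without a test. Gusb, the β-glucuronidase gene, was printed 10 times on each array. Its mean scaled signal was 0.632 ± 0.0542 with 4-OHT, 0.811 ± 0.0595 with vitamin E added, 0.781 ± 0.0475 with lutein added and 0.570 ± 0.0645 with vehicle (SD over spots, n = 10 spots on 1 array). In the same order its log2 SD over spots was 0.129, 0.108, 0.0874 and 0.168. Pooled over the detected probes printed 10 times, that SD was 0.104, 0.0987, 0.0966 and 0.103.

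The brightest probes of Idua and Sgsh contain dinucleotide repeats, and their values are read with that in view. The Idua probe (mm9, chr5:109112893-109112952, plus strand) opens with a CA run of 20 bases, and the Sgsh probe (mm9, chr11:119204865-119204924, minus strand) has a GT run of 22 bases. A stretch of each is shown with the repeat in capitals, bases 1 to 30 of the Idua probe and 14 to 43 of the Sgsh probe.
Idua probe: CACACACACACACACACACAgagtctaaat
Sgsh probe: cacaTGTGTGTGTGTGTGTGTGTGTGcgtg
Over the whole array, the 54 probes with a CA run of at least 12 bases and signal well above background on both arrays had a median log2 difference of 1.45 for 4-OHT against vehicle, and 72.2% of them were at least 2-fold higher, against 6.18% of the 27121 probes without such a run. The 119 probes with a GT run of that length had a median of -0.70, and 2 of them were above 0. With vitamin E the medians against 4-OHT alone were -1.28 for 55 CA probes and 0.51 for 119 GT probes. Idua (1.42 and -1.36 for the same comparisons) and Sgsh (-0.75 and 0.67) lay close to the medians of the probes with their repeat. Each gene has a second detected probe without a repeat, and the values of those probes stand beside the main ones below. No other member's brightest probe had such a run. Repeats of other kinds were not searched for.

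With 4-OHT, compared with vehicle, the lysosomal genes differed by role: all 11 glycosidase genes were higher (7 of 11 under spike-in scaling), the proteases other than Ctsz and Ctsl lay near or below vehicle, and the tetraspanin gene Cd63 had the largest difference. Over the 35 measured genes the median log2 difference was 0.14, against -0.06 over all 22115 genes measured and -0.13 over the 14099 protein-coding ones. Of the 35, 21 were above vehicle, against 45.1% of all genes, and 27 were above the median of all genes. At least 2-fold higher were 2 genes, Cd63 and Idua (all genes: 7.75%), and only Cd63 remained on probes without a repeat. At least 2-fold lower were 0 genes (all genes: 3.16%). At 1.5-fold, Hexa joined the higher ones, so that 3 were higher (all genes: 15.2%), and Smpd1 and Sgsh were lower, 2 genes (all genes: 13.5%). For 10 of the 35 the difference was within the spot noise. With scaling on spike-in probes the median of all genes shifted by -0.24, which put the median of the lysosomal genes at -0.10 with 12 of 35 above vehicle, while 27 of 35 were again above the median of all genes. It also put the higher genes at 42.4% of all genes past 2-fold, against 71.1% with the main scaling.

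**Figure D1:**
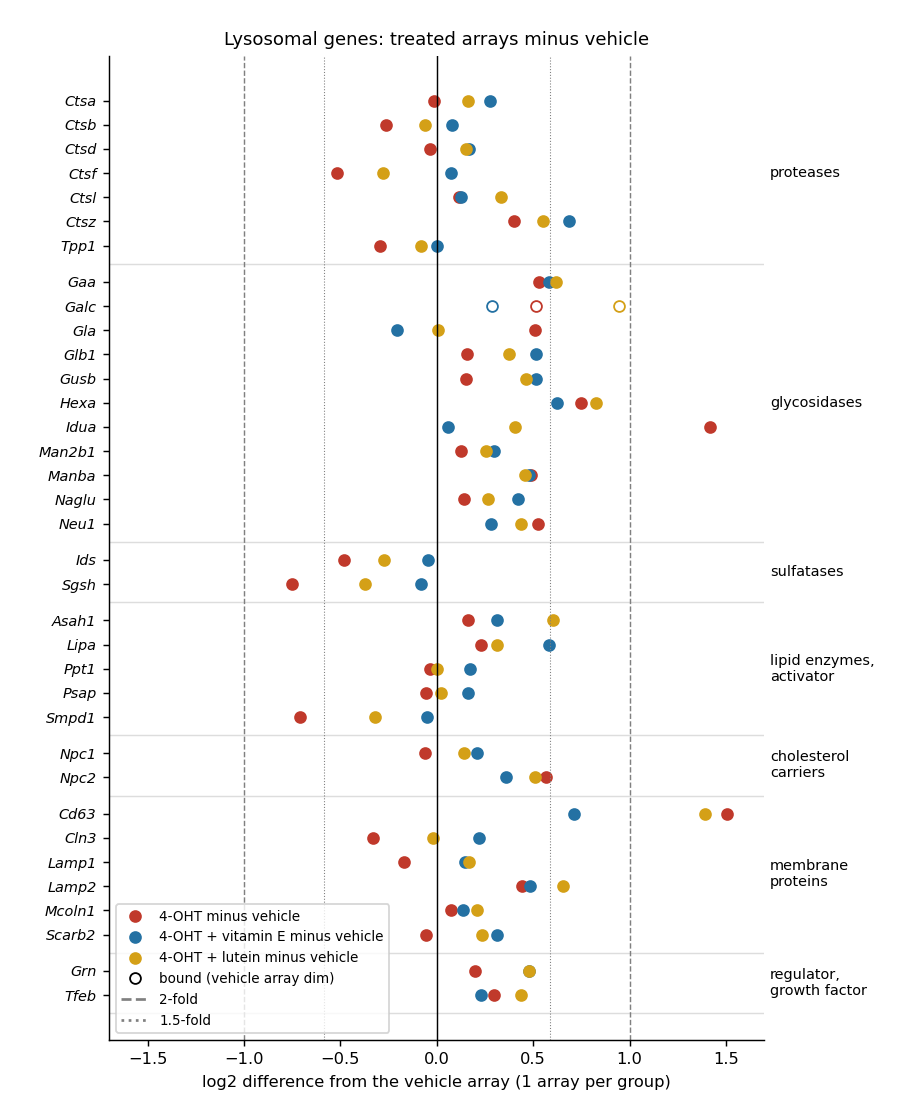
Log2 difference from the vehicle array of each measured lysosomal gene, grouped by role (1 array per group); points show 4-OHT, 4-OHT with vitamin E and 4-OHT with lutein, open points are lower bounds for Galc, whose probe was dim on the vehicle array, and lines mark 1.5-fold and 2-fold. The 11 glycosidases lie right of 0 with 4-OHT (7 of 11 under spike-in scaling), Cd63 lies beyond 2-fold with 4-OHT and with lutein, and Ids, Sgsh and Smpd1 lie left of 0 on every treated array.

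The glycosidases remove sugars from glycoproteins, glycosaminoglycans, glycogen and glycolipids. With 4-OHT all 11 were above vehicle, Galc as a lower bound, and their median was 0.51. For 2 of them the difference was within the spot noise. Under spike-in scaling the median of the glycosidases was 0.27 and 7 of 11 were above vehicle, and all 11 were above the median of all genes on either scale. Hexa, the α subunit of β-hexosaminidase A that degrades gangliosides, had a scaled signal of 8.02 with 4-OHT, 7.37 with 4-OHT and vitamin E, 8.49 with 4-OHT and lutein, and 4.78 with vehicle. The 3 treated arrays lay close together and all above vehicle, and the 4-OHT array was 1.68-fold higher than vehicle. Gaa, the acid α-glucosidase that degrades glycogen, was likewise lowest with vehicle, at 34.9, 36.2 and 37.0 with 4-OHT, added vitamin E and added lutein, against 24.2 with vehicle. Its log2 difference with 4-OHT was 0.53, and its second probe gave 0.37.

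Manba, a β-mannosidase, had scaled signals of 0.403, 0.400 and 0.394 with 4-OHT, added vitamin E and added lutein, against 0.287 with vehicle. Its 3 treated arrays were thus nearly equal and all higher. Neu1, the lysosomal sialidase, stood at 16.9 with 4-OHT, 14.2 with added vitamin E, 15.9 with added lutein and 11.7 with vehicle, a log2 difference of 0.53 for 4-OHT. Galc, which removes galactose from myelin-type lipids, was well above background on the 3 treated arrays, at 0.0736, 0.0629 and 0.0991, and not on the vehicle array, so that it was at least 1.43-fold higher with 4-OHT, at least 1.22-fold with added vitamin E and at least 1.92-fold with added lutein. The remaining enzymes of this kind, Glb1, Gusb, Man2b1 and Naglu, were higher by 0.12 to 0.16 with 4-OHT on the log2 scale, and by 0.30 to 0.51 with added vitamin E and 0.25 to 0.46 with added lutein, each against vehicle.

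Gla and Idua had a different order of groups. Gla, the α-galactosidase that degrades globotriaosylceramide, had a scaled signal of 312 with 4-OHT, 190 with added vitamin E, 220 with added lutein and 219 with vehicle. The 4-OHT array alone was high, with a log2 difference of 0.51 from vehicle, and the vitamin E array was the lowest of the 4. Gla has no second probe to set beside these values. Whether its probe also reads other sequences was not tested. Idua, which cleaves iduronic acid from heparan and dermatan sulfate, stood at 26.2 with 4-OHT, 10.2 with added vitamin E, 13.0 with added lutein and 9.81 with vehicle on the probe with the CA run. Its second probe gave 0.342, 0.274 and 0.287 on the treated arrays, in the same order, against 0.201 with vehicle. The difference of 4-OHT from vehicle was 1.42 on the first probe and 0.77 on the second, and that of added vitamin E from 4-OHT was -1.36 and -0.32. RefSeq places Idua over parts of Slc26a1 and Dgkq, which were looked up for this reason and differed by 0.07 and 0.57 with 4-OHT against vehicle.

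**Figure D2:**
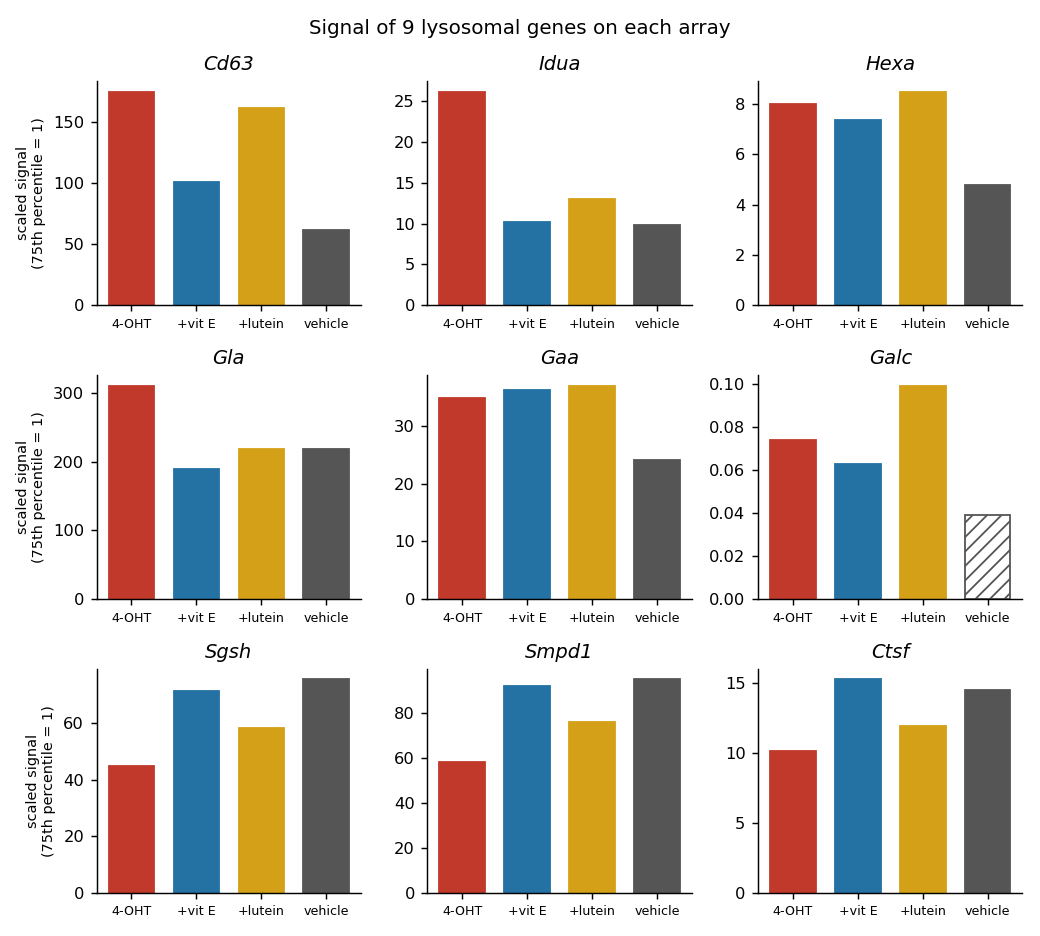
Scaled signal (linear, 75th percentile of the array = 1) of 9 lysosomal genes on the 4 arrays, 1 bar per array, from the brightest probe of each gene; the hatched bar was not well above background. Cd63, Idua and Gla are highest with 4-OHT, Hexa and Gaa are alike on the treated arrays and lowest with vehicle, and Sgsh, Smpd1 and Ctsf are lowest with 4-OHT.

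Sulfatases act with these glycosidases on heparan sulfate, and both measured ones lay below vehicle on all 3 treated arrays. Ids, the iduronate-2-sulfatase, had a scaled signal of 1.49 with 4-OHT, 2.01 with added vitamin E, 1.72 with added lutein and 2.08 with vehicle. It was lowest with 4-OHT, by 0.48 on the log2 scale, and the vitamin E array differed from vehicle by less than the spot noise. Sgsh, the N-sulfoglucosamine sulfohydrolase, stood at 44.9, 71.5 and 58.4 with 4-OHT, added vitamin E and added lutein, against 75.6 with vehicle, on the probe with the GT run. Its second probe gave 1.89 with 4-OHT, 2.62 with added vitamin E, 2.38 with added lutein and 2.23 with vehicle. On that probe the 4-OHT array was again the lowest, by 0.24 against 0.75 on the first, whereas the supplemented arrays lay above vehicle rather than below it.

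The proteases digest the proteins delivered to the lysosome. With 4-OHT the 7 measured ones had a median of -0.03, 2 of them above vehicle, and 3 were within the spot noise. Quantile normalization put the median at 0.14 with 4 of 7 of these proteases above vehicle. Ctsf, a cysteine protease, had a scaled signal of 10.1 with 4-OHT, 15.2 with added vitamin E, 11.9 with added lutein and 14.5 with vehicle. The 4-OHT array was the lowest, by 0.52 on the log2 scale, and the vitamin E array the highest. Tpp1, a tripeptidyl peptidase whose loss causes a neuronal ceroid lipofuscinosis, and Ctsb, a cysteine protease, were lower by 0.30 and 0.26 with 4-OHT. Ctsd and Ctsa, at -0.03 and -0.02, did not differ beyond the spot noise. Ctsz, a carboxypeptidase, was the exception in this group, at 4.84, 5.90 and 5.37 with 4-OHT, added vitamin E and added lutein, against 3.67 with vehicle, higher on all 3. Ctsl, a cysteine protease, was at 34.7, 35.0 and 40.3 on these arrays against 32.0 with vehicle, with the lutein array highest.

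Among enzymes of lipid breakdown, Smpd1 differed most. Smpd1, the acid sphingomyelinase that makes ceramide, had a scaled signal of 58.0 with 4-OHT, 91.7 with added vitamin E, 76.0 with added lutein and 94.9 with vehicle. The 4-OHT array was the lowest, by 0.71 on the log2 scale, and the lutein array lay between it and the vehicle array. Its probe (mm9, chr7:112706752-112706811) is the only detected one and holds no CA or GT run. Asah1, the acid ceramidase that acts on the product of Smpd1, stood at 1.33, 1.48 and 1.81 with 4-OHT, added vitamin E and added lutein, against 1.19 with vehicle, highest with lutein. Lipa, the acid lipase for cholesteryl esters and triglycerides, stood at 0.747, 0.954 and 0.789 on these arrays against 0.636 with vehicle, highest with vitamin E. Psap, the precursor of the saposin activators, and Ppt1, a thioesterase, differed from vehicle by -0.06 and -0.04 with 4-OHT, within the spot noise.

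The cholesterol carriers Npc1 and Npc2 pass cholesterol out of the lysosome, and they differed from each other here. Npc2, the soluble carrier, had a scaled signal of 6.14 with 4-OHT, 5.33 with added vitamin E, 5.90 with added lutein and 4.15 with vehicle, a log2 difference of 0.57 for 4-OHT. Npc1, its membrane partner, stood at 0.628, 0.757 and 0.722 on the treated arrays and 0.655 with vehicle. Its difference with 4-OHT, -0.06, was within the spot noise.

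Cd63 stood apart from the other membrane proteins. This tetraspanin of late endosomes, lysosomes and exosomes had a scaled signal of 175 with 4-OHT, 101 with added vitamin E, 162 with added lutein and 61.7 with vehicle, on a probe at chr10:128349813-128349872 (mm9). The 4-OHT array was 2.84-fold higher than vehicle and the lutein array 2.62-fold, and the vitamin E array lay between them and vehicle at 1.64-fold. RefSeq names a pseudogene, Cd63-ps, and whether the probe also reads it was not tested. Lamp1 and Lamp2 are the main glycoproteins of the lysosomal membrane. Lamp1 stood at 62.1, 77.5 and 78.6 with 4-OHT, added vitamin E and added lutein, against 69.9 with vehicle, so that the 4-OHT array was the lowest, by 0.17. Lamp2 stood at 7.03, 7.23 and 8.15 on these arrays against 5.17 with vehicle, higher on all 3, and a second Lamp2 probe differed by 0.77 with 4-OHT where the brightest differed by 0.44.

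Cln3, a membrane protein whose loss causes juvenile neuronal ceroid lipofuscinosis, had a scaled signal of 12.9 with 4-OHT, 18.9 with added vitamin E, 16.0 with added lutein and 16.2 with vehicle. Its 3 probes gave -0.33, -0.36 and -0.40 for 4-OHT against vehicle, all lower. Scarb2, the receptor that carries glucocerebrosidase to the lysosome, was at 2.21 with 4-OHT, 2.85 with added vitamin E, 2.70 with added lutein and 2.30 with vehicle. Mcoln1, the calcium channel TRPML1, was at 17.7, 18.5 and 19.4 on the treated arrays and 16.8 with vehicle on its brightest probe, within the spot noise for 4-OHT at 0.07. A second Mcoln1 probe, near background at 0.136, 0.161 and 0.171 with 4-OHT, added vitamin E and added lutein against 0.0697 with vehicle, gave 0.96, so that the probes disagree in size. Over the 6 membrane proteins the median with 4-OHT was 0.01, with 3 above vehicle and 3 below, and it ran from -0.23 under spike-in scaling to 0.23 with the mean of each gene's probes.

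Tfeb, the factor that binds the CLEAR element, and Grn, which encodes progranulin, a secreted protein processed in lysosomes, were above vehicle on every treated array. Tfeb had a scaled signal of 0.212 with 4-OHT, 0.203 with added vitamin E, 0.234 with added lutein and 0.173 with vehicle. Grn stood at 3.13, 3.80 and 3.81 on the treated arrays and 2.73 with vehicle. Log2 differences with 4-OHT were 0.30 for Tfeb and 0.20 for Grn. Among the other MiT/TFE factors, Tfe3 differed by 0.29 and Mitf by -0.12 with 4-OHT. The 5 genes with TCACGTGA in the promoter windows printed above had a median of -0.02 for 4-OHT against vehicle, from -0.33 for Cln3 to 0.51 for Gla, and the 27 measured genes with a window lacking it had a median of 0.16.

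With vitamin E added to 4-OHT, compared with 4-OHT alone, 26 of 35 lysosomal genes were higher, and Idua, Cd63 and Gla were the lowest. Of all genes 56.9% were higher, and of the protein-coding ones 65.8%. The median log2 difference over the 35 genes was 0.22, against 0.08 over all 22188 genes and 0.17 over the protein-coding ones, and 21 of 35 lay above the protein-coding median. At least 2-fold lower was 1 gene, Idua (all genes: 8.81%), which on its second probe differed by -0.32, so that 0 were left on probes without a repeat. At least 2-fold higher were 0 (all genes: 1.48%). At 1.5-fold, 3 were higher, Ctsf at 0.59, Smpd1 at 0.66 and Sgsh at 0.67 (all genes: 8.55%), and 3 were lower, Gla at -0.72, Cd63 at -0.79 and Idua (all genes: 15.6%). All 7 measured proteases were higher, with a median of 0.29. With quantile normalization, where the median was 0.15, or with scaling on the median, 6 of 7 of these proteases were higher. The 11 glycosidases had a median of -0.01, 5 higher and 6 lower. With spike-in scaling the all-gene median shifted by 0.35 and the median of the lysosomal genes was 0.56, and the share of higher genes among all genes past 2-fold was 14.4% with the main scaling, 30.1% with quantile normalization and 52.2% with spike-in scaling.

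With lutein added to 4-OHT, compared with 4-OHT alone, 29 of 35 lysosomal genes were higher, against 61.8% of all genes and 69.4% of the protein-coding ones. The median was 0.19, against 0.08 over all 22042 genes and 0.13 over the protein-coding ones, and 23 of 35 lay above the second of these. At least 2-fold lower was 1 gene, Idua at -1.01 (all genes: 3.83%), with -0.25 on its second probe, and 0 were higher (all genes: 1.18%). At 1.5-fold, Idua was again the only lower gene (all genes: 9.15%) and 0 were higher (all genes: 3.91%). The highest differences were those of Asah1 and Galc, at 0.44 and 0.43, followed by Smpd1 at 0.39 and Sgsh at 0.38. All 7 measured proteases were higher, from 0.15 for Ctsz to 0.24 for Ctsf. Gla was lower by 0.50 and Cd63 by 0.11, the second within the spot noise. With spike-in scaling the all-gene median shifted by 0.18 and the higher share among all genes past 2-fold was 41.2%, against 23.6%.

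**Figure D3:**
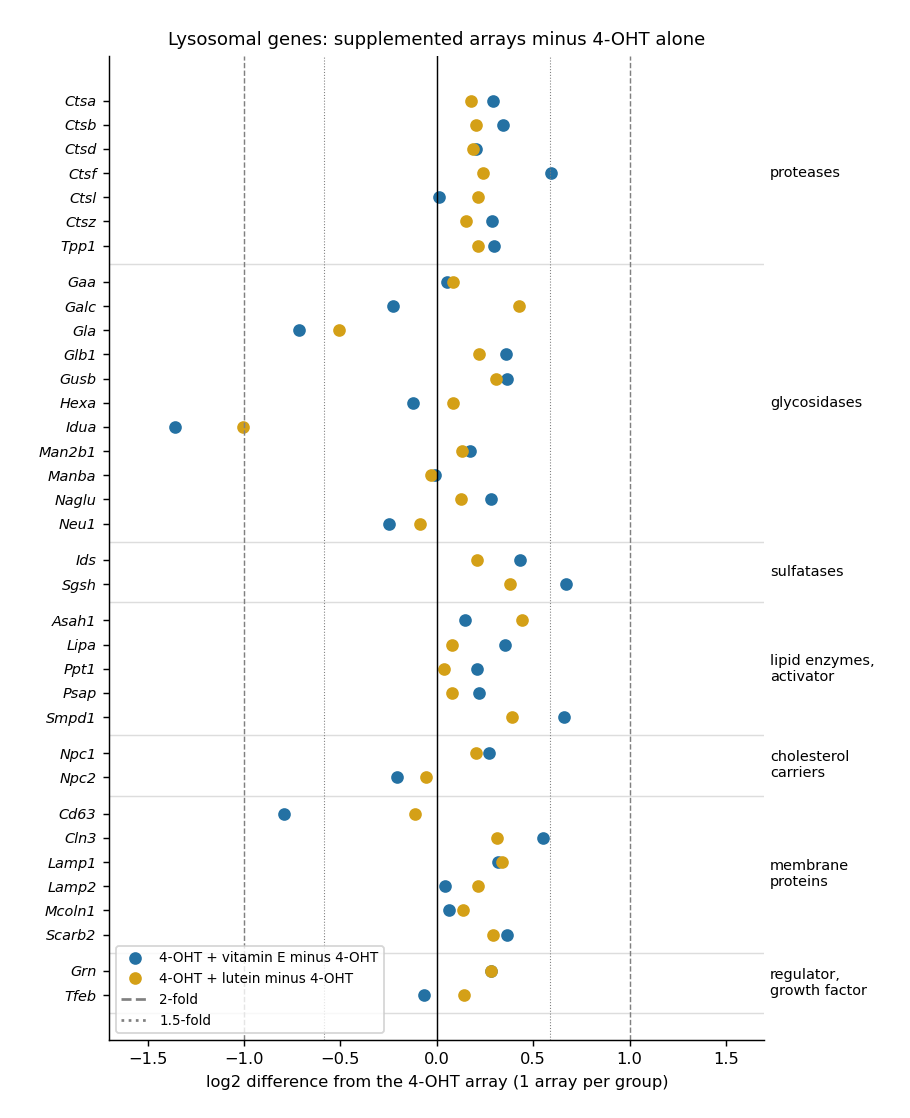
Log2 difference of the 4-OHT with vitamin E array and of the 4-OHT with lutein array from the array of 4-OHT alone for each measured lysosomal gene, grouped by role (1 array per group); lines mark 1.5-fold and 2-fold. The proteases, sulfatases and lipid enzymes lie right of 0 with either supplement, and Idua, Gla and Cd63 lie left of it.

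On the vitamin E array compared with vehicle, 31 of 35 lysosomal genes were higher, by small amounts. The median log2 difference was 0.27, against -0.02 over all 21383 genes and 0.01 over the protein-coding ones, of which 51.4% were higher. At least 2-fold higher were 0 of the 35 (all genes: 1.09%) and 0 were lower (all genes: 2.01%). At 1.5-fold, 3 were higher, Cd63 at 0.71, Ctsz at 0.69 and Hexa at 0.62 (all genes: 4.40%), and 0 were lower (all genes: 6.66%). The 4 genes below vehicle were Gla at -0.21, Sgsh at -0.08, Smpd1 at -0.05 and Ids at -0.05, and the last 3 were within the spot noise. Between 30 and 34 genes of the lysosomal enzymes and membrane proteins were above vehicle under every alternative run, with a median from 0.20 to 0.38. Quantile normalization, normexp and spike-in scaling put the higher share among all genes past 2-fold at 45.3%, 46.4% and 49.5%, against 35.2%.

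On the lutein array compared with vehicle, 27 of 35 lysosomal genes were higher, against 48.6% of all genes, with a median of 0.27 against -0.01 over all 21386 genes. At least 2-fold higher was 1 gene, Cd63 at 1.39 (all genes: 3.45%), and 0 were lower (all genes: 1.51%). At 1.5-fold, 0 were lower (all genes: 5.82%) and 6 were higher (all genes: 9.24%): besides Cd63 these were Galc as a bound, Hexa at 0.83, Lamp2 at 0.66, Gaa at 0.62 and Asah1 at 0.61. All 11 glycosidases were above vehicle, with a median of 0.44, Gla by 0.00, and 10 of 11 glycosidases were above it on quantile, spike-in, normexp or median-scaled values. The lowest genes were Sgsh at -0.37, Smpd1 at -0.32, Ctsf at -0.28 and Ids at -0.27.

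**Figure D4:**
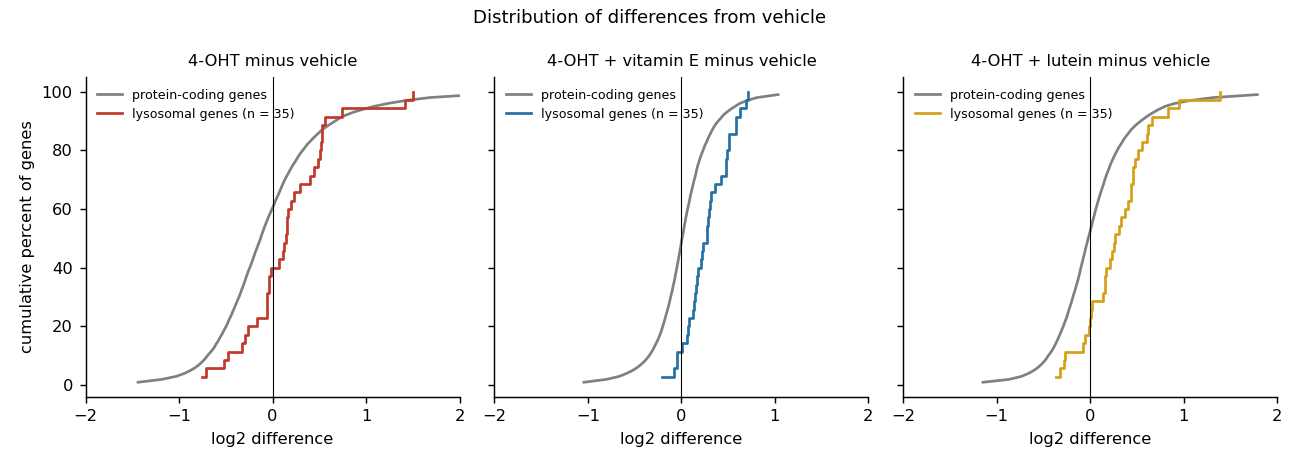
Cumulative percent of genes by log2 difference from vehicle, for the 35 measured lysosomal genes and for all protein-coding genes, on the 4-OHT, 4-OHT with vitamin E and 4-OHT with lutein arrays. The lysosomal curve lies to the right of the protein-coding curve over most of its range on each array, with medians of 0.14 against -0.13, 0.27 against 0.01, and 0.27 against -0.02.

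Across the 3 treated arrays, 20 of the 35 genes were above vehicle on all 3. This was so for 24.6% of the 19377 genes detected on all 4 arrays and 26.4% of the protein-coding ones. The 20 genes include 10 glycosidases, Tfeb, Grn, Npc2, Lamp2, Mcoln1, Cd63, Ctsl, Ctsz, Lipa and Asah1. Galc, among these glycosidases, was not well above background with vehicle. It enters only as a bound and is not one of the 19377 genes. Idua enters on its repeat probe, and its second probe was above vehicle on all 3 as well. Under spike-in scaling the median of the 35 genes with 4-OHT was -0.10, so fewer than 20 were above vehicle there. Below vehicle on all 3 were Ids, Sgsh and Smpd1, against 33.0% of all genes and 35.5% of the protein-coding ones, with Sgsh on its repeat probe. Another 11 were below vehicle with 4-OHT and above it with vitamin E, namely Ctsa, Ctsb, Ctsd, Ctsf, Tpp1, Lamp1, Scarb2, Cln3, Npc1, Psap and Ppt1. The share of all genes with this pattern was not counted. For Ctsa, Ctsd, Scarb2, Npc1, Psap and Ppt1 the difference with 4-OHT was within the spot noise. For Ctsb, Ctsf and Tpp1 the difference with vitamin E was within it. The 3 differences share the vehicle array, so a value of that array alone enters each of them.

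Between the supplements, the lysosomal genes were alike in the middle and differed for a few. With vitamin E compared with lutein, both on top of 4-OHT, the median was 0.04, against 0.01 over all 21469 genes, and 14 of 35 were within the spot noise. At 2-fold, 0 were higher (all genes: 0.494%) and 0 lower (all genes: 3.69%). At 1.5-fold, 2 were lower with vitamin E, Cd63 at -0.68 and Galc at -0.66 (all genes: 8.93%), and 0 were higher (all genes: 2.21%). The highest was Ctsf at 0.35, and after Cd63 and Galc the lowest were Idua at -0.35 (-0.07 on its second probe) and Asah1 at -0.29. The higher share among all genes past 2-fold was 11.8%, against 21.9% with spike-in scaling, where the all-gene median shifted by 0.17.

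Other genes of the lysosome were read from further lists. The 19 measured subunits of the vacuolar ATPase, the pump that acidifies the lysosome, had a median of -0.25 with 4-OHT against vehicle, with 15 below vehicle, and of 0.30 with vitamin E against 4-OHT alone, with 18 higher. Over all genes the medians of these comparisons were -0.06, with 45.1% above vehicle, and 0.08, with 56.9% higher. Over the protein-coding ones they were -0.13, with 39.5% above vehicle, and 0.17, with 65.8% higher. Quantile normalization put the vacuolar ATPase median with 4-OHT at -0.12 and 7 of 19 vacuolar ATPase subunits above vehicle. Atp6v1g2, a subunit found in neurons, had a scaled signal of 0.575 with 4-OHT, 0.880 with added vitamin E, 0.724 with added lutein and 1.12 with vehicle, lowest with 4-OHT by 0.96 on the log2 scale. Atp6v0e2, a subunit of the membrane sector, was lower by 1.28 with 4-OHT. Tcirg1, the subunit abundant in osteoclasts, went the other way, at 0.230, 0.220 and 0.191 on the treated arrays against 0.101 with vehicle.

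The 30 other measured hydrolases and activators had a median of -0.03 with 4-OHT, 15 above vehicle and 15 below. Ctsk, the collagen-degrading protease of osteoclasts, stood at 0.300 with 4-OHT, 0.109 with added vitamin E, 0.130 with added lutein and 0.0906 with vehicle. Dnase2a, the acid DNase, stood at 51.9, 19.5 and 26.7 on the treated arrays against 22.2 with vehicle, so the 4-OHT array alone was high for both genes. Ctsc, an activator of granule proteases, stood at 0.657, 0.393 and 0.679 against 0.268, high with 4-OHT and with lutein. Galns, a sulfatase, was lower by 0.75 with 4-OHT than with vehicle. Its level with added vitamin E was higher by 1.06 than on the 4-OHT array. Dpp7, a dipeptidyl peptidase, was higher by 0.98 with 4-OHT than with vehicle.

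Among 27 other lysosomal membrane proteins the median with 4-OHT was -0.12, with 11 above vehicle. Cd68, a glycoprotein of macrophage lysosomes, stood at 1.19 with 4-OHT, 0.246 with added vitamin E, 0.539 with added lutein and 0.229 with vehicle, 5.20-fold higher with 4-OHT. Slc17a5, the sialic acid exporter, was higher by 1.62 on a probe with a CA run of 22 bases. Slc11a1, a metal transporter of phagocyte lysosomes, and Lamp5, a neuronal relative of Lamp1, were lower by 2.04 and 1.25. The 18 genes of mannose 6-phosphate tagging and sorting had a median of 0.00, and the receptor gene Igf2r stood at 2.31, 1.49 and 2.08 on the treated arrays against 1.08 with vehicle. The 32 measured MiT/TFE and mTORC1 genes had a median of -0.17, with Sesn2, a stress-induced inhibitor of mTORC1, highest at 1.32. The 23 genes of the response to damaged lysosomes had a median of -0.21, with 17 below vehicle, among them Tsg101 at -0.89 and Vps4a at -0.73. In that list Sqstm1 was higher by 0.93, and Lgals3, a lectin that marks ruptured lysosomes, was at least 2.08-fold higher. Beside these lists, the median with 4-OHT was -0.06 over all genes, with 45.1% above vehicle. Over the protein-coding ones it was -0.13, with 39.5% above vehicle.

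**Figure D5:**
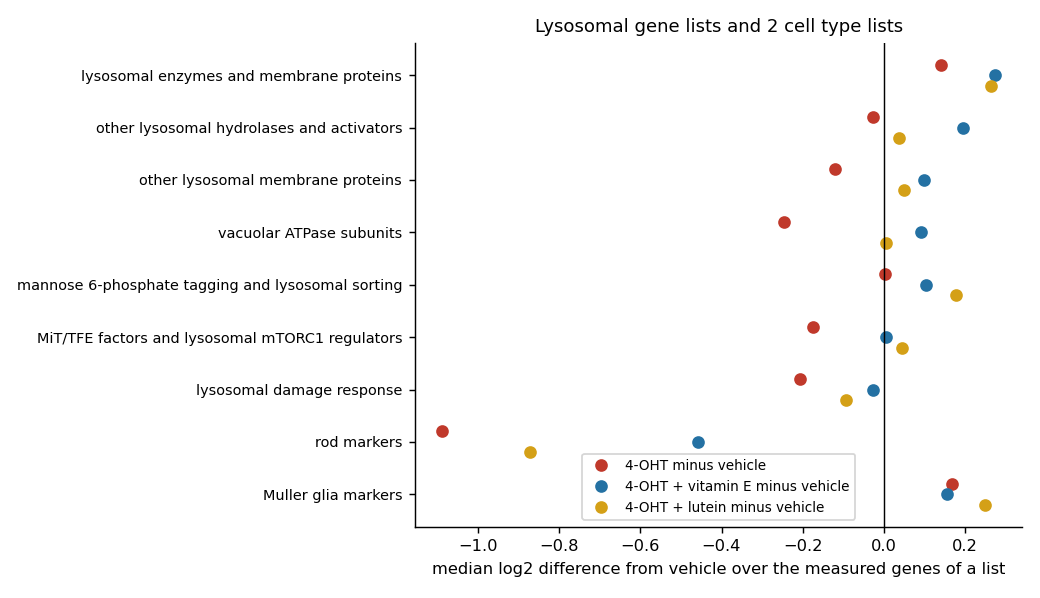
Median log2 difference from vehicle over the measured genes of each list, for the 4-OHT, 4-OHT with vitamin E and 4-OHT with lutein arrays. The lysosomal genes described here have medians of 0.14, 0.27 and 0.27, the vacuolar ATPase list lies at -0.25 with 4-OHT, and the rod list lies lowest on each array.

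Markers of single cell types differed between the arrays as well. The 8 rod markers had a median of -1.09 with 4-OHT against vehicle, with summed scaled signals of 481 with 4-OHT, 792 with added vitamin E, 605 with added lutein and 959 with vehicle, and in such bulk samples fewer cells of a type cannot be told apart from less RNA per cell. The 8 Müller glia markers summed to 78.7, 69.4 and 81.7 on the treated arrays and 63.4 with vehicle, and their median for 4-OHT was 0.17, or -0.07 under spike-in scaling. These markers were split. With 4-OHT 5 were above vehicle, led by Sox9 at 1.26 and Vim at 0.89, and 3 were below, Glul at -0.24, Slc1a3 at -0.22 and Aqp4 at -0.74. Vim gave 28.0 of the sum with 4-OHT and 15.1 of that with vehicle. Of 12 microglia and macrophage markers 5 were detected on any array, while Aif1, Cx3cr1, P2ry12, Ptprc, Trem2, Tyrobp and Adgre1 were well above background on none. Their sum was 33.1, 14.4 and 18.8 with 4-OHT, added vitamin E and added lutein, against 14.6 with vehicle, and 28.2 of the first was Itgam, whose probe holds a CA run of 20 bases. Of 10 pigment epithelium markers 6 were detected, with Rpe65, Best1, Mlana and Lrat on no array. The summed pigment markers were 18.9, 15.7 and 18.3 on the treated arrays and 9.16 with vehicle, of which Dct gave 10.66, 7.57 and 9.44 and, with vehicle, 1.98. Dct was thus higher by 2.43 with 4-OHT, Tyr by 0.36 and Rlbp1 by 0.21, whereas Tyrp1 and Pmel were lower by 0.13 and 0.30. Rlbp1, which is also in the Müller glia list, gave 7.58, 7.31 and 8.06 of the treated sums and 6.55 of the vehicle sum. The median of the 5 pigment epithelium markers measured in that comparison was 0.21, or -0.03 under spike-in scaling. A sum over probes is led by the brightest ones and compares arrays, not genes. The part of these cell types in the values of the lysosomal genes was not tested.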

How the data were processed

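The arrays were 1-colour Agilent arrays, and 50 ng of RNA was labelled per sample, per the labels. Agilent Feature Extraction, version 10.7.3.1 in the submitters' processing notes, read them. Per the file headers, the authors' deposited intensity had the local background and spatial trends removed, and arrays were not normalized to each other. Probe positions are on mm9, for which exon or UTR annotation was not used here.

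Each array held 59305 gene spots, 51.3% to 54.5% of them well above background, and 0 saturated. Outlier spots, 137 to 164 on an array, were dropped. Intensities were divided by the array's 75th percentile and logged (log2). Gene names came from the vehicle array, since 57 names in the lutein array's file had been altered, 0 of them of lysosomal genes. Genes entered a comparison when the brightest probe had signal well above background on either array. Dim values were raised to the array's lowest such signal, which makes such a difference a limit, given as "at least N-fold".

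The lysosomal genes, the related lists and the limits were chosen with earlier results of these data known. Every lysosomal gene could be named, and from each other list up to 5 members with the largest differences in a comparison, plus up to 2 bounds. Slc26a1, Dgkq, Tfe3 and Mitf were named after their values were seen. The settings tried were scaling on the median of probes seen on all arrays, on quantiles or on 8 of 10 spike-in probes, normexp background correction with offset 50 (limma 3.58.1, R 4.3.3), averaging the probes of a gene, requiring detection on both arrays or none, limits of 1.5-fold and 4-fold, and the authors' deposited value table. Probes without a CA or GT run of 12 bases were added after seeing the data. The deposited table holds linear signal divided by 1 number per array (434, 469, 479 and 494 for 4-OHT, vitamin E, lutein and vehicle), as its ratio to the scanner values shows. It is neither logged nor centred, with column medians of 0.0949, 0.0736, 0.0847 and 0.0794. Other steps used Python 3.11.15, NumPy 2.4.6, pandas 2.3.3 and matplotlib 3.10.9. Having 1 array per group limits the precision.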

Additional observations from a re-analysis of the deposited data

How the results depend on the processing

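No paired analysis was possible because no group has a second array. Of 54 alternative medians of the lysosomal genes 50 moved by less than the spot noise and kept their sign. The spot noise is that of single probes and is a wide limit for a median. It was larger than the main medians for 4-OHT against vehicle (0.14) and for vitamin E against lutein (0.04). A median could therefore shrink nearly to 0 there and still count among the 50. The other 4 were under spike-in scaling: 1 reversed, to -0.10 for 4-OHT against vehicle, where the all-gene median shifted by -0.24, and 3 moved, to 0.56 for vitamin E and 0.37 for lutein against 4-OHT alone, and 0.21 for vitamin E against lutein. Counts past 2-fold are small and moved as follows. At 4-fold, 0 genes were higher with 4-OHT or lutein against vehicle and 0 lower with vitamin E or lutein against 4-OHT. At 1.5-fold, 2 were lower with 4-OHT against vehicle, 3 higher and 3 lower with vitamin E against 4-OHT, 3 higher with vitamin E and 6 higher with lutein against vehicle, and 2 lower with vitamin E against lutein. On probes without a CA or GT repeat, 1 was higher with 4-OHT against vehicle, and 0 were lower with vitamin E or lutein against 4-OHT, because Idua then rests on its second probe. The mean of a gene's probes likewise gave 0 and 0. Spike-in scaling gave 2 higher with vitamin E and 0 lower with lutein, each against 4-OHT. With no filter, which adds Ctss and Ctsh, 2 were lower with vitamin E against 4-OHT, 1 lower with vitamin E against vehicle, 2 higher with lutein against vehicle and 1 lower with vitamin E against lutein. That setting shifted the all-gene median by up to 0.17 and put the higher share of all genes past 2-fold at 38.8% for lutein against 4-OHT. Of 1887 alternative values of single lysosomal genes, 200 moved by more than the spot noise, 140 of them under spike-in scaling, and 0 of those past 2-fold reversed. Where a cause is not stated, the cause was not tested. Signal near background limits Galc, Tfeb and the second Mcoln1 probe.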
